A study of Mus musculus with 2 samples.

Results

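The ubiquitin-specific proteases (USPs) were described in chromatin-associated RNA of mouse bone-marrow-derived macrophages (BMDM), which are grown in culture from bone marrow. Members were taken by name: every gene whose symbol begins with Usp and a digit and that has an annotated protein-coding transcript, except Usp18, which removes the ubiquitin-like protein ISG15. Of 59 symbols that match, 4 were left out (Usp18, the pseudogene Usp17le-ps and the noncoding genes Usp46os1 and Usp46os2), so 55 members remained among 55536 annotated genes, 22028 of them protein coding. The name also takes in genes not known as active ubiquitin proteases by background knowledge. Among them are Usp6nl, whose product activates the GTPase of Rab proteins, and Usp39 and Usp50, described below.

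All libraries belonged to 1 group: C57BL/6J macrophages given lipid A at 100 ng/ml for 12 h, kept without it for 12 h, and given 100 ng/ml again for 75 min. Lipid A is the part of bacterial lipopolysaccharide that Toll-like receptor 4 senses. RNA was isolated from chromatin, so transcripts still being made or processed are part of it, and ribosomal RNA was removed before sequencing. Biological replicates 1 and 2 started from 250 and 500 ng of RNA, carried the same donor entry, and are not spelled out as separate cultures, with age and sex recorded as not collected. With no untreated samples, the values below are levels and their spread between 2 libraries, not responses to lipid A, and no test was made.

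Ubiquitin is a small protein that is joined to other proteins, alone or in chains, and the USPs are the largest family of enzymes that cut it off again. They are cysteine proteases whose catalytic domain is shared, while the flanking domains differ and set which substrate, chain or organelle each one serves. In macrophages, chains built on adaptors of Toll-like receptor signalling carry the signal to NF-kB, and several USPs, with enzymes of other families such as A20 and CYLD, are known to trim them.

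Gene levels are given in TPM (transcripts per 1e6 transcripts), a share of the library per base of transcript, and read numbers in expected counts, estimates that need not be whole. Main values come from counts based on alignments to transcripts, called alignment-based, and a second set of values made from the reads directly is called alignment-free. Totals were 18445009 and 17686824 expected counts, so that 0 counts allows a share of up to 1.63e-05% in replicate 1 and 1.70e-05% in replicate 2, by counting error only. All 10 macrophage markers checked were at 1 TPM or more in both libraries, with sums of 1033 and 609.5 TPM, and 5 of them were over 1.5-fold lower and 1 higher in replicate 2. Marker sums stayed at or under 0.0900 TPM for B cells, T cells and neutrophil precursors, between 0.6900 and 1.010 TPM for fibroblasts, and at 5.680 and 1.240 TPM for erythroid cells, of which Alas2 held 5.19 and 1.24 TPM. Cd79a, Pax5, Cd3e, Cd3g, Lck and the 4 neutrophil precursor markers were at 0 in both libraries by alignment, while the alignment-free program gave Cd3d 17.8 TPM.

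Several results below turn on annotated isoforms of the class "retained intron", transcripts that keep intron sequence and are not expected to give the full protein. The places where 7 abundant ones, of genes high in the order by level, leave a coding exon are shown here, each with 12 exon bases followed by 18 intron bases, 5' to 3', and with the first 2 intron bases (GT) in capitals. Sequences are from the GENCODE M21 transcripts on mm10, and the annotated transcript includes every base shown.
Usp15-205, chr10:123163575-123163604, minus strand: ctctactcctaaGTaagtgctcctccttgt
Usp16-207, chr16:87458731-87458760, plus strand: cagagtctgcagGTatggttcctcagttgt
Usp5-207, chr6:124823435-124823464, minus strand: aagatgcagaagGTgagggaggacctcgcc
Usp4-203, chr9:108356530-108356559, plus strand: attgtcagaaaaGTgagttgacaagttgtt
Usp25-204, chr16:77093731-77093760, plus strand: gttttgcagtcgGTaagaacttttcttctg
Usp19-211, chr9:108500258-108500287, plus strand: gctgccagccagGTgaggcattggggaggc
Usp47-205, chr7:112074556-112074585, plus strand: gatgctcggaagGTaagagacttgtaaata
Isoforms of Usp19 and Usp47 also keep the far end of the intron, so their intron is contained whole. For these the last 18 intron bases, with the closing AG in capitals, and the first 12 bases of the next coding exon follow.
Usp19-211, chr9:108501176-108501205, plus strand: cctttccacataccatAGgcttcccggatt
Usp47-205, chr7:112074639-112074668, plus strand: tcacttgcctctttttAGggccttcggttt
Among the 120 retained-intron isoforms of members at 1 TPM, 86 crossed the 5' end of an intron with coding exon bases before it, 67 crossed the 3' end of one with coding bases after it, and 116 crossed at least 1 of these. Only 31 contained a whole intron of a protein-coding isoform, 42 introns in all, of which 41 begin with GT and 41 end with AG. Those introns were short, with a median of 255.0 bases (76 to 2166), against 1436 bases for the other 872 introns of the same genes. The isoforms with a whole intron held 28.4% and 27.7% of the retained-intron TPM of these genes, and 40.9% and 42.9% of the retained-intron counts, while in the 5 isoforms shown for Usp15, Usp16, Usp5, Usp4 and Usp25 an exon ends inside the intron.

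Of the 55 members, 38 (69.1%) were at 1 TPM or more in both libraries, against 40.1% of all protein-coding genes, and 22 were at 10 TPM or more in both. The median over members of the mean TPM was 4.34 (SD 1.06 between the library medians of 5.19 and 3.69), against 0.290 over all protein-coding genes. Restricted to genes at 1 TPM, the median was 15.9 TPM over the 38 members and 9.36 TPM over 8829 protein-coding genes. The members summed to 1011 and 931.1 TPM from 50186 and 41654 expected counts, and the 10 highest held 62.8% and 64.9% of that TPM. Levels ran from 88.8 TPM down to 11 members with no count in either library, and the order of the members was close to the same in both libraries (Spearman rho 0.99 over 55 genes, as a description).

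**Figure D1:**
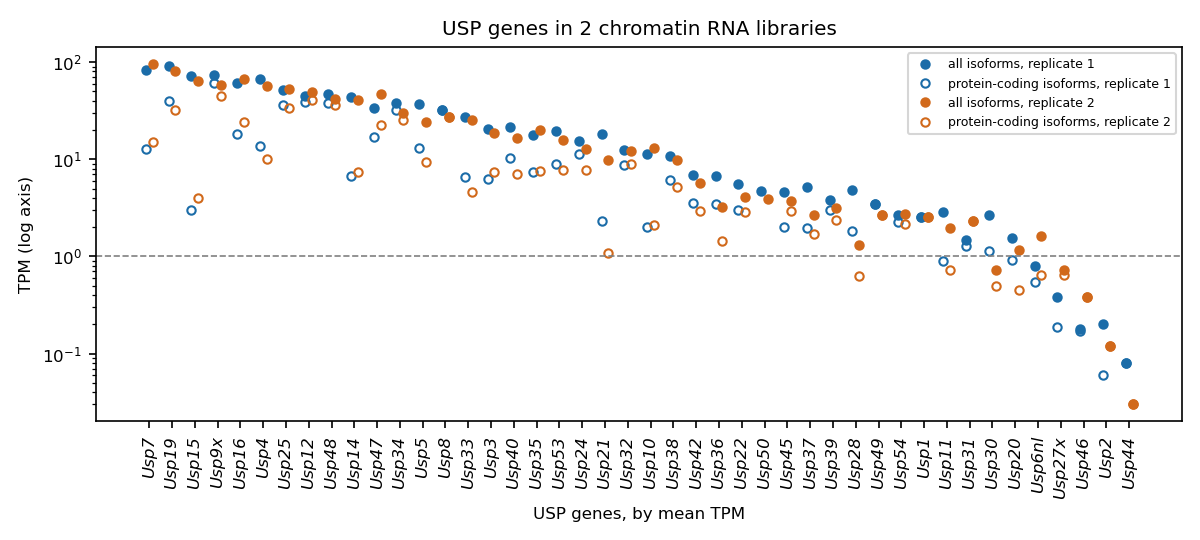
Level of each USP gene with reads, in TPM on a log axis, over all isoforms (filled) and over protein-coding isoforms (open), with 1 point per library and the dashed line at 1 TPM. Usp7 leads over all isoforms at 82.1 and 95.5 TPM, while its protein-coding isoforms lie at 12.9 and 15 TPM; members at 0 are not drawn.

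Over all isoforms, genes of the proteasome, endosome, endoplasmic reticulum (ER) and trafficking group held the highest median of the 6 role groups, 26.2 TPM over 11 genes. At 10 TPM or more in both libraries were 8 of the 11. By protein-coding isoforms alone the group was not the highest. Its median member was then Usp35 with 7.47 TPM, below Usp53 with 8.29 TPM, that of the growth-signalling or less defined group. Usp19, anchored in the ER membrane and known from ER-associated degradation, had 91.2 and 80.0 TPM from 3578 and 2694 counts. Usp9x, an X-linked protease of endosomal trafficking that also stabilises the survival protein MCL1, followed with 74.5 and 57.5 TPM. Both had the lower TPM in replicate 2.

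Usp14, which sits on the proteasome and trims chains of arriving substrates, had 44.1 and 40.4 TPM. Usp5, the enzyme that takes apart free ubiquitin chains, had 36.6 and 24.0 TPM, and Usp8, which rescues receptors from lysosomal sorting at endosomes, had 32.4 and 27.5 TPM. Of these, Usp5 had the widest gap between libraries, with a ratio of replicate 2 over replicate 1 of -0.51 on the log2 scale. Usp33, known from receptor recycling, had 26.9 and 25.5 TPM, Usp35 had 17.7 and 19.9 TPM, and Usp32, a membrane-bound member, had 12.4 and 12.3 TPM. Usp30, the protease of the mitochondrial outer membrane that opposes mitophagy, was 1 of the 2 genes just outside the limit of 1 TPM, with 2.69 and 0.720 TPM. The other was Usp6nl with 0.80 and 1.64 TPM, while the nearest inside, by the lower of their libraries, were Usp20 with 1.54 and 1.16 TPM and Usp28 with 4.87 and 1.32 TPM.

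Genome maintenance and cell-cycle members numbered 10, of which 9 reached 1 TPM in each library, and their median was 4.04 TPM. Usp7 (chromosome 16, 8689595 to 8792308, minus strand, mm10), which acts on the p53 ligase MDM2 and on p53, was far above the others of its group at 82.1 and 95.5 TPM, a mean of 88.8 ± 9.52 (SD, n = 2). Usp7 and Usp19 changed places between the libraries, so neither can be called the highest beyond their spread. Usp12, which works with the cofactors Wdr48 and Wdr20, had 45.2 and 48.8 TPM. Usp10, which acts on p53 and binds the stress-granule protein G3BP1, had 11.3 and 13.0 TPM. Usp37, which acts on cyclin A, had 5.19 and 2.69 TPM, and Usp28, known to stabilise Myc, had 4.87 and 1.32 TPM, so both were at a lower TPM in replicate 2. Usp45, which acts on the repair factor ERCC1, had 4.6 and 3.69 TPM, and Usp11 had 2.88 and 1.97 TPM. The rest of the group lay between 0.280 TPM (Usp46, the close relative of Usp12) and 4.96 TPM (Usp36, a nucleolar enzyme), with Usp1, the protease of PCNA and FANCD2, at 2.54 TPM in each library.

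Among the 9 histone and chromatin members, Usp16 was the highest. Usp16, a protease of ubiquitinated histone H2A, had 60.6 and 67.3 TPM from 2411 and 2193 counts. Usp3, a further H2A enzyme, had 20.7 and 18.5 TPM, and Usp21, also an H2A enzyme, had 18 and 9.94 TPM. Usp22, the catalytic subunit of the deubiquitinase module of the SAGA coactivator, had 5.62 and 4.12 TPM. Usp42 had 6.88 and 5.75 TPM, and Usp49, known for histone H2B, had 3.44 and 2.70 TPM. The 2 relatives of Usp22 that share the module's partners were lower, Usp27x with 0.380 and 0.720 TPM and Usp51 with no count, and Usp44 reached 0.08 and 0.03 TPM from 3 counts and 1 count.

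The members with reported roles in innate immune signalling numbered 9, of which 7 were at 1 TPM in both libraries, with a median of 10.3 TPM. Usp15, known to act on TRIM25 and on receptor-regulated SMADs, had 72.5 and 63.4 TPM, and its paralogue Usp4 had 66.3 and 56.2 TPM. Usp25, which acts on TRAF adaptors, had 52.2 and 53.4 TPM, and Usp48, which acts on TRAF2 and RelA, had 46.4 and 41.5 TPM. Of these 4, Usp25 differed least between the libraries, 52.8 ± 0.841 TPM (SD, n = 2). Below them came Usp38 at 10.3 TPM on average, Usp31 with 1.46 and 2.32 TPM, Usp20, the paralogue of Usp33, at 1.35 TPM, Usp2 at 0.160 TPM, and Usp13 with no count.

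Of the growth-signalling or less defined members, 8 of 9 were at 1 TPM in both libraries, with a median of 14.1 TPM. Usp47, known from base excision repair, had 33.9 and 46.5 TPM, the higher value being in replicate 2. Usp34, which stabilises axin in Wnt signalling, had 37.8 and 30.1 TPM, and the most counts of any member, 5785 and 4136. Usp40 had 21.3 and 16.4 TPM, Usp53, known from tight junctions, had 19.5 and 15.8 TPM, and Usp24 had 15.3 and 12.9 TPM. Usp39, a splicing factor without protease activity, had 3.82 and 3.15 TPM, Usp54 had 2.66 and 2.71 TPM, and Usp43 had no count.

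All 7 genes known from testis or germ line, Usp26, Usp29 and 5 Usp17-like copies on chromosome 7, had no count in either library. Usp13, Usp43, Usp51 and the Y-linked Usp9y were the other 4 members without a count. The alignment-free program gave a different value for some of these. For Usp17la it gave 7.35 and 9.45 TPM and for Usp29 2.17 and 2.81 TPM, while Usp17lb, Usp17ld and Usp17le were at 0 by both programs. Why the programs differ was not tested, and the values of Usp29 and of each Usp17-like copy are uncertain.

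**Figure D2:**
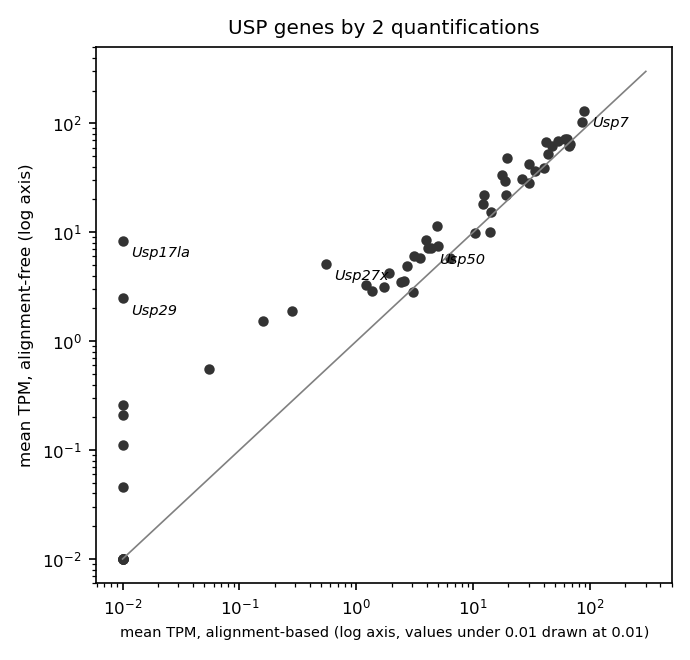
Mean TPM of each of the 55 USP genes over 2 libraries by the alignment-based (x) and the alignment-free (y) program, on log axes with values under 0.01 drawn at 0.01 and the line of equality in grey. Points of genes over 1 TPM follow the line, mostly above it, while Usp17la and Usp29 are at 0 by one program and at 8.40 and 2.49 TPM by the other.

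Over all members the programs ranked the genes alike, with a Spearman rho of 0.96 over 55 genes, given as a description. In 30 of the 38 members at 1 TPM the alignment-free mean was the higher, with a median ratio of 1.40, against 1.27 over protein-coding genes at 1 TPM. Besides Usp17la, Usp27x was the one gene at 5 TPM or more in either program with a difference over 3-fold, 0.550 TPM by alignment and 4.65 and 5.67 TPM without. The reason for the difference in Usp27x, a relative of Usp22, was not tested, and its value is uncertain. With the alignment-free values, 45 members were at 1 TPM in both libraries; the 7 added were Usp2, Usp6nl, Usp17la, Usp27x, Usp29, Usp30 and Usp46.

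By class of isoform, retained-intron transcripts held 46.0 ± 1.24% (SD, n = 2) of the members' summed TPM and protein-coding transcripts 45.5 ± 0.733%. The retained-intron share over all protein-coding genes was 37.7 ± 0.252%. By expected counts the order was the opposite, 20.2 ± 0.971% for the members and 25.0 ± 0.635% for all protein-coding genes, so no direction is read from the pair. TPM divides by length, and the members' retained-intron isoforms had a median length of 788.5 bases against 3332 bases for their protein-coding ones, each over 120 isoforms. In 28 of 31 members the share by TPM exceeded that by counts in both libraries. In chromatin RNA, intron reads of transcripts not yet spliced cannot be told apart here from those of retained-intron isoforms. None of these shares is therefore a measure of lasting intron retention.

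Of the 38 members at 1 TPM, 31 (81.6%) have an annotated retained-intron isoform, against 65.5% of protein-coding genes at that level. The median share in these isoforms was 50.9% of TPM over the 31 members and 45.5% over those genes, but 23.0% and 28.7% of expected counts. The share was above 50% of TPM in 17 of 31 members (54.8%), against 42.3% of the genes, and above 50% of counts in 5 of 31 (16.1%), against 28.0%. The order of members and genes thus turned between TPM and counts here too, and no direction is read from it. Usp12, Usp48, Usp34, Usp8, Usp38, Usp49 and Usp1 have no such isoform annotated, so their reads could not be placed in one.

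**Figure D3:**
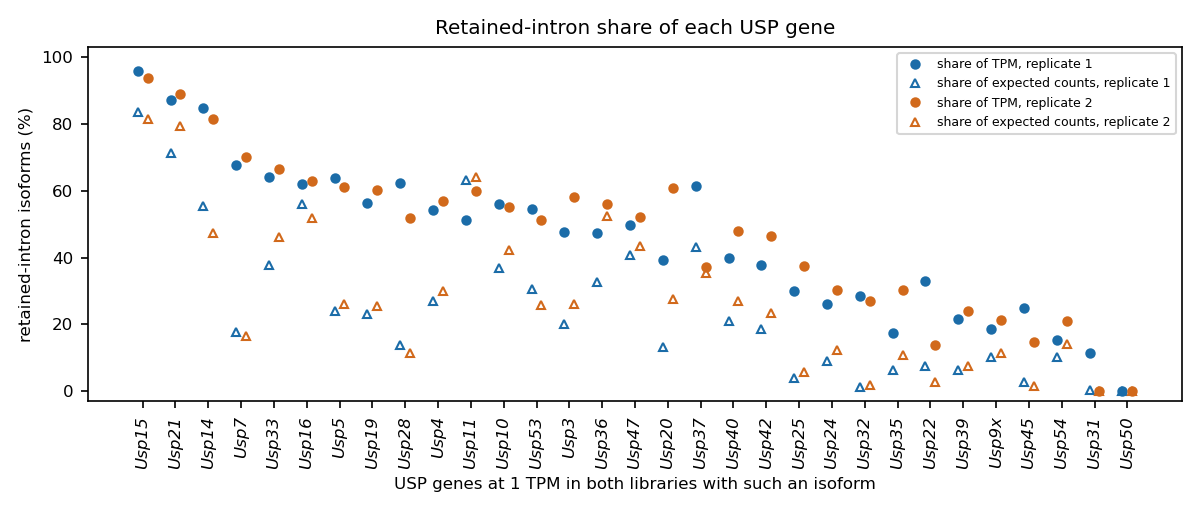
Share of each gene's TPM (circles) and expected counts (triangles) in retained-intron isoforms, in percent, for the 31 USP genes at 1 TPM with such an isoform, 1 symbol per library. Usp15 is near the top by both measures, while Usp7 falls from 69.0% of TPM to 17.2% of counts.

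Usp15 had the highest share, 95.9% and 93.7% of its TPM and 82.6% of its counts on average. Its isoform Usp15-205, whose exit from a coding exon is printed above, held 20.3 and 22.0 TPM from 901 and 884 counts. The class does not tell how much intron sequence an isoform keeps. Usp15-205 has 75.6% of its bases outside exons of coding isoforms, but Usp15-208, with 15.8 and 10.5 TPM, only 1.01%. The share of Usp15 is therefore one of annotated class, not of intron bases. All protein-coding isoforms of Usp15 together held 3 and 4.02 TPM, so that the gene was the third in the order by all isoforms and 22 in that by coding ones. Usp21 and Usp14 followed with 88.1% and 83.2% of TPM and 75.3% and 51.3% of counts. Usp7 had 67.8% and 70.1% of its TPM in such isoforms, and much of it came from few reads: Usp7-209, 280 bases long, was given 13.5 and 24.0 TPM from 13.5 and 25.3 counts. The isoform and the gene both had their higher TPM in replicate 2. Usp33 had 64.0% and 66.6%, and Usp16 62.1% and 63.0%, where counts gave 54.0% on average.

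At the low end, among members with a mean of at least 5 TPM, were Usp9x with 18.8% and 21.3%, Usp35 with 17.6% and 30.3%, and Usp32 with 28.6% and 27.1% of TPM. Usp9x-201, the coding isoform of 11887 bases, held 20.5 and 18.7 TPM from 4085 and 3376 counts. Usp25 had 33.8% by TPM and 4.88% by counts, and Usp25-201, its main coding isoform, held 36.5 and 33.4 TPM. Usp50, a member without known catalytic activity, had all of its 4.74 and 3.94 TPM in a nonsense-mediated-decay and a processed transcript, and none in a coding one.

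With protein-coding isoforms alone, a measure added after the values were seen, the order at the top was another one. Usp9x led with 60.5 and 45.2 TPM, followed by Usp12 with 39.2 and 40.5 TPM, Usp48 with 38.1 and 35.9 TPM, and Usp19 with 39.8 and 31.9 TPM. Both libraries of Usp9x were above those of the other 3, while Usp19 overlapped with Usp12 and Usp48. Usp9x-201 held most of the counts of Usp9x but less TPM than its other coding isoforms together. The lead of Usp9x by this measure thus rests largely on coding isoforms with fewer counts. Usp7 was the tenth, at 12.9 and 15 TPM. The median over the 38 members at 1 TPM was 6.22 TPM by this measure, against 4.64 TPM over protein-coding genes at 1 TPM.

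Between the libraries, 42 members had at least 10 counts in each. After TMM scaling (a factor that lines up the bulk of genes) 6 of them (14.3%) were past 1.5-fold. The share was 24.1% over all genes and 22.3% over protein-coding genes. Lower in replicate 2 were Usp36 (-1.29 on the log2 scale), Usp28 (-0.90) and Usp30 (-0.82), and higher were Usp46 (1.27), Usp31 (0.82) and Usp27x (0.60). Over all genes 12.3% were lower and 11.8% higher by that fold. Only Usp36 and Usp31 had a mean of 100 counts. Usp36 had 398 and 148 counts. By alignment most of the gap lay in 1 isoform, Usp36-201, with 190.8 and 0 counts, while Usp36-204 held 1.42 TPM in each. The alignment-free program gave Usp36-201 a value at or near 0 in both and the gene 9.23 and 5.81 TPM from 692 and 345 counts. In those values the gap was present without that isoform. Usp31, known as an inhibitor of NF-kB signalling, had 221 and 357 counts, nearly all in its coding isoform.

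The members' median ratio was -0.17 on the log2 scale, against 0.00 over all genes and -0.03 over protein-coding genes. Below 0 were 30 of 42 (71.4%), against 49.7% of all genes and 52.6% of protein-coding genes. Under other scalings and by the alignment-free program the members' median stayed below 0, from -0.16 to -0.25. That of all genes moved too, between 0.01 and -0.07. It was -0.07 under scaling by total counts, where the members had -0.25. Macrophage markers also had a median below 0, -0.47 over 10 genes, with Adgre1, the gene of the macrophage surface protein F4/80, at 497 and 193 TPM. The part of these marker differences, or of the amounts of starting RNA, in the members' ratio was not tested.

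**Figure D4:**
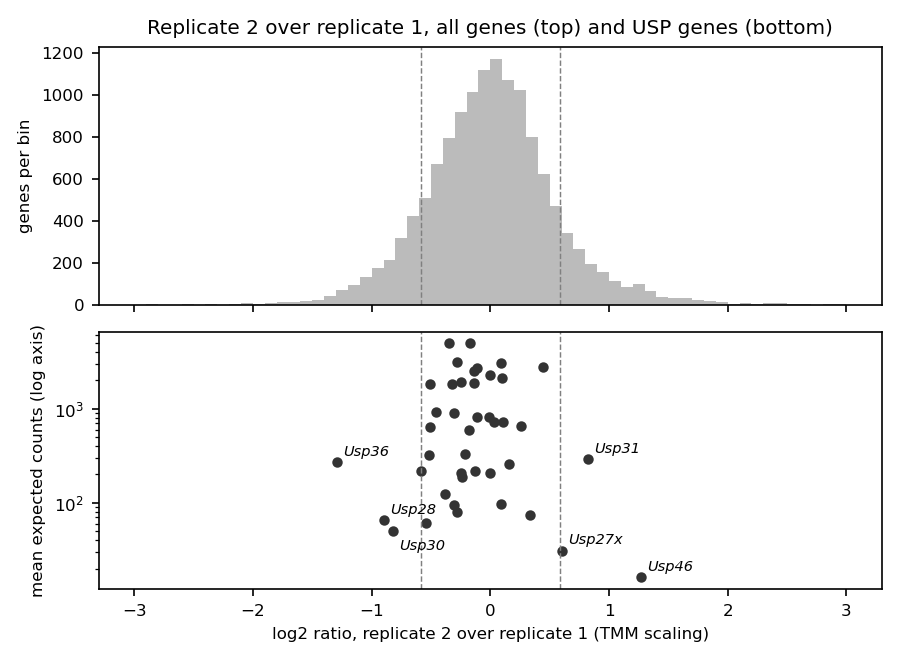
Log2 ratio of replicate 2 over replicate 1 after TMM scaling, as a histogram of all 13247 genes with 10 counts in each library (top) and for 42 USP genes against mean expected counts on a log axis (bottom), with dashed lines at 1.5-fold. Usp36 lies far to the left at -1.29 and Usp46, the least counted, to the right at 1.27, and 30 of the 42 are left of 0.

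The 34 deubiquitinases of other families gave a comparison. Of these, 29 (85.3%) were at 1 TPM in both libraries, with a median of 10.4 TPM, and their median log2 ratio between libraries was 0.14. Tnfaip3, which encodes the NF-kB inhibitor A20, had 298 and 540 TPM, above every USP. In the OTU family it was followed by Otud5 at 87.2 and Otud4 at 29.2 TPM on average, and Otud7a was listed at 0 by alignment and at 83.9 TPM without. Zup1, specific for K63-linked chains, was the highest of the MINDY, ZUP1 and CYLD group with 207 and 228 TPM, above Mindy3 (36.3 TPM) and Cyld (15.8 TPM), and Mindy4 was the lowest at 1.02 TPM.

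JAMM metalloproteases were led by Psmd14 of the proteasome lid (58.7 TPM), Mysm1, an H2A enzyme (31.3 TPM), and Cops5 of the COP9 signalosome (20.1 TPM), with Stambpl1 the lowest at 2.17 TPM. In the UCH family the order was Bap1 (28.8 TPM), the tumour suppressor that acts on H2A, Uchl5 (6.35 TPM), Uchl3 (0.560 TPM) and Uchl1 (0.295 TPM), a neuronal enzyme. The Josephin genes were Atxn3 (10.3 TPM), Josd2 (8.03 TPM) and Josd1 (1.91 TPM). Usp18, left out of the members, had 54.0 and 59.0 TPM.

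**Figure D5:**
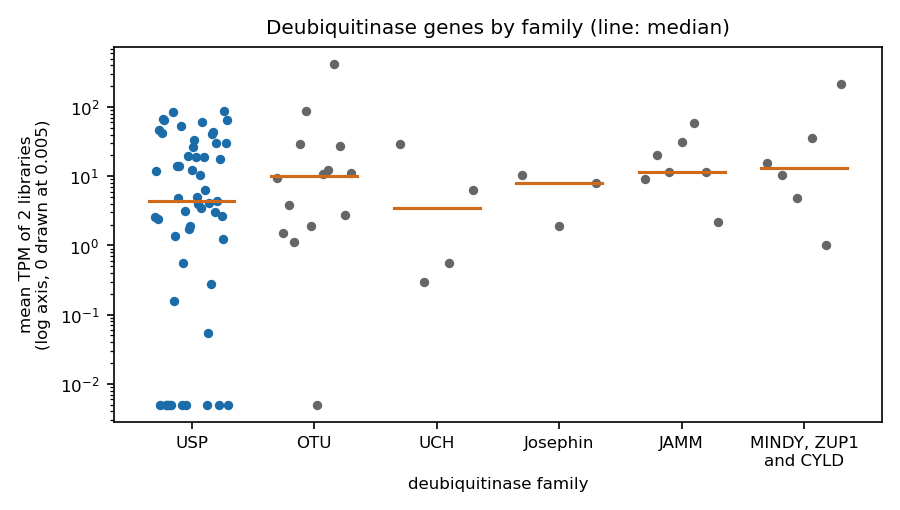
Mean TPM over 2 libraries of each deubiquitinase gene by family, on a log axis with 0 drawn at 0.005, where the line marks the family's median. The USP genes run from 0 to 88.8 TPM with a median of 4.34, and Tnfaip3 at 419 TPM is the top point of the OTU family.

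Of the USP cofactors, 6 of 7 were at 1 TPM in both libraries, with a median of 14.6 TPM. Wdr48, the activator of Usp1, Usp12 and Usp46, was the highest at 47.7 and 60.9 TPM. By protein-coding isoforms it had 20.3 and 28.6 TPM, below the 39.2 and 40.5 TPM of Usp12, so the order of the pair depends on the isoforms counted. Atxn7, of the SAGA module, had 25.7 and 24.6 TPM, and Wdr20 20.4 and 22.3 TPM, while Dmwd, related to Wdr20, was the lowest at 2.45 and 0.630 TPM. The module's other subunits, Atxn7l3 and Eny2, had 13.5 and 10.2 TPM on average. Retained-intron isoforms held 90.5% of the TPM of Eny2, and its coding ones had 0.83 TPM, against 2.95 TPM for Usp22. Of the ubiquitin and E1 genes, Rps27a, which encodes ubiquitin fused to a ribosomal protein, had 37.3 TPM on average, and the E1 enzymes Uba1 and Uba6 had 20.4 and 5.62 TPM.

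Exons of some members overlap exons of another gene, and since no source used here states how strand was counted, reads of the opposite strand cannot be told apart there. Usp14 shares 2169 exon bases with Thoc1 (53.9 and 51.7 TPM), Usp34 shares 2137 with Ahsa2 (10.2 and 7.12 TPM), and Usp16 shares 192 with Cct8 (34.7 and 39.4 TPM). Usp33 shares 1478 with Gm43857 (2.37 TPM in each library) and 745 with Gm42967 (2.19 and 3.23 TPM), so its retained-intron share is uncertain too. On the same strand, Usp49 shares 4392 bases with Gm20517 (4.37 and 4.36 TPM), so its level is uncertain. The deposited SD of read assignment was at most 4.45% of the count for members at 1 TPM.

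RefSeq promoters on GRCm38.p6, the assembly also called mm10, were matched to 43 of the 55 members by symbol. They run from 250 bases before to 50 bases after the listed start. The members' promoters held a median of 25.0 CG dinucleotides per 300 bases, against 7 over all 27025 promoters. Those 27025 were not limited by level or gene type, so no trait of the family is read from the difference. The members' median was 30.0 over the 29 at 1 TPM and 14.5 over the 14 below it. Those 14 include the related copies Usp17la, Usp17lb and Usp17lc, with 1 CG each, and Usp17ld with 0. The lower median thus rests partly on these copies, and no link between CG content and level is read from it. The 250 bases before the start are shown for Usp34, the member with the most counts, and for Usp17ld, which had none, with each CG in capitals.
Usp34, chr11:23306645-23306894, plus strand: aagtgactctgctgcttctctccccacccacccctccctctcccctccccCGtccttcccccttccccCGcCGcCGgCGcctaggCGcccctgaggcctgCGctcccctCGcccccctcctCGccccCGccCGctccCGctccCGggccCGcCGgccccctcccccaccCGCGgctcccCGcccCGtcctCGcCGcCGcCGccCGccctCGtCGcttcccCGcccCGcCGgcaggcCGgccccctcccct
Usp17ld, chr7:103252506-103252755, minus strand: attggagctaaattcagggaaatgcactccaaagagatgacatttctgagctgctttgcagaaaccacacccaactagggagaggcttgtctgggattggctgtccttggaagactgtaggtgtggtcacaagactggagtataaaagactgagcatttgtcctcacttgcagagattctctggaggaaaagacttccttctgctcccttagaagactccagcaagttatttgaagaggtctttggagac
The upstream window of Usp34 holds 30 CG dinucleotides, and that of Usp17ld holds none. CG content and level did not always go together: Usp13, with no count, has 36 in its promoter, and Usp50, at 4.34 TPM, has 2. None of the TPM of Usp50 lay in a coding isoform, and whether its reads came from the listed start was not tested. The letters GGGANNTTC, part of the NF-kB motif, were found on either strand in 2 of the 43 (4.65%), those of Usp27x and Usp47, against 3.87% of all promoters. The letters GAAANNGAA, part of the interferon-response motif, were in 4 (9.30%), those of Usp11, Usp17lc, Usp17ld and Usp49, against 8.57% of all. Both shares lie near those of all promoters, and no promoter of these held both. A match is a match of letters only, and its absence says nothing of the factor.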

How the data were processed

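Chromatin-associated RNA depleted of ribosomal RNA was measured in 2 libraries of 1 group. The authors deposited alignment-based expected counts and TPM per gene and per transcript on mm10 with GENCODE M21 (RSEM-type columns, per the file headers). They also deposited alignment-free estimated counts and TPM per transcript (kallisto-type columns, per the file headers), which were summed per gene here. The programs, their versions and the handling of strand: not given in the sources used here. TPM were length-corrected and brought to a common sum by the authors, and depth was 18445009 and 17686824 expected counts.

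Spike-in and numbered entries without gene names were left out. Members were chosen by symbol, and members and lists were chosen with earlier results of these data known. Of 128 list symbols, 127 matched. Rounded expected counts of genes with at least 10 in each library were scaled by TMM (edgeR 4.0.16), or by DESeq2 1.42.0 size factors as an alternative, to give log2 ratios; a 1.5-fold difference between 2 libraries is a description, with no test. The calculation was tested on simulated data, where 200 of 200 genes changed 4-fold were recovered. Those data held counting error only, and the changed genes had a mean of at least 100 counts. Recovery of 1.5-fold differences, or at fewer counts, was not tested. Named genes are the 20 members of highest mean TPM, those past 1.5-fold at 100 counts or more, the 6 highest and 3 lowest retained-intron shares at 5 TPM, those over 3-fold apart between programs at 5 TPM, the nearest 2 on each side of 1 TPM, and the 3 highest and the lowest of each other list; further members were named to account for all, and some list genes are not reported here.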

Additional observations from a re-analysis of the deposited data

How the results depend on the processing

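The count of USP genes at 1 TPM, 38, ranged from 39 to 45 under the alternatives (45 by the alignment-free program), and that of other deubiquitinases from 30 to 31. The median over USP genes, 4.34 TPM, was 7.52 by the alignment-free program, 16.2 with TPM rescaled over protein-coding genes, 2.48 with protein-coding isoforms only (chosen after seeing the data), and 3.69 to 5.19 without 1 replicate. That of the other families, 10.4 TPM, was 15.6, 38.6 and 4.11, and 9.63 to 10.1 without 1 replicate. The retained-intron share, 46.0%, was 49.0% by the alignment-free program, 20.2% of expected counts, 50.9% as the median over genes (23.0% by counts, chosen after seeing the data), and 45.1% to 46.9% without 1 replicate. Past 1.5-fold between the libraries were 6 USP genes, 2 with 100 counts or more in each library, and 9 when scaled by total counts, where 7 were lower and 2 higher. The alternatives change the unit or the genes and isoforms counted; other causes were not tested. The median log2 ratio stayed below 0 in each. No paired analysis was possible because all libraries belong to 1 group. Levels of genes with few counts, and TPM of the shortest isoforms, are the least precise here.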
